A study of Mus musculus with 7 samples.

Results

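The 31 genes described here are immediate-early genes, which cells switch on within minutes of a stimulus, and heat-shock genes, which encode the chaperones that cells make under stress. They were chosen by gene symbol, as AP-1, Egr, Klf and heat-shock response genes, and all 31 were found among the 22680 rows of the deposited table. The RNA came from blood-forming cells sorted from fetal liver of C57BL/6 mice, 13.5 days after conception. There were 3 libraries of LSK cells (lineage-negative, Sca-1-positive, c-Kit-positive cells, the fraction that holds the hematopoietic stem cells) with the wild-type Uhrf1 genotype, 3 libraries of LSK cells labelled Uhrf1-/-, and 1 library of wild-type LK cells, the c-Kit-positive progenitors without Sca-1. No treatment is named in the labels. Uhrf1 encodes a protein needed to keep DNA methylated through replication. Neither the way it was deleted, nor any Cre, nor the number of fetuses per library is stated in the labels. The Uhrf1-/- libraries are called mutant below where their values are listed. Each LSK genotype has replicates numbered 1, 2 and 3, and the LK library has no second one.

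AP-1 is a dimer of a Jun protein with a Fos or related protein, and the Egr and Klf zinc finger factors are induced beside it and bind other DNA sites. These genes need no new protein to be transcribed: kinases of the MAPK pathways act on factors already bound at their promoters, and the mRNAs decay quickly, helped by RNA-binding proteins such as Zfp36, while phosphatases such as Dusp1 turn the kinases off. Heat-shock genes answer to a separate factor, Hsf1, and some of them, such as Hspa8, are also made at a high level in unstressed cells.

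Levels are given as FPKM (fragments normalised for transcript length and for library depth), which allows levels of different genes to be compared. Differences are on the log2(FPKM + 1) scale, where a difference of -1 is close to a halving for a gene well above 1 FPKM and less than that for a low gene. The depth of the 7 libraries ran from 15556959 to 21017402 in scaled counts and from 16808501 to 25802934 in the reads estimated from them. The targeted gene went with the labels: Uhrf1 was at 63.0 to 112.8 FPKM in wild-type LSK cells, 115.9 FPKM in LK cells and 8.78 to 18.6 FPKM in the mutant. The Sca-1 gene Ly6a ranged from 26.4 to 96.4 FPKM in LSK cells and was 0.321 FPKM in LK cells, and Kit ranged from 24.4 to 56.6 FPKM in all 7. Ribosomal protein genes took 4.73% of the scaled counts in wild-type LSK replicate 2 and 10.6% to 15.7% in the other 6 libraries. Of the 31 genes, 27 had a mean of at least 1 FPKM over the 6 LSK libraries and were tested among 10608 genes. Egr2, Egr3, Cyr61 and Fosl2 lay below that minimum.

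Most immediate-early genes were high in replicates 1 and 2 of both genotypes and low in replicate 3 of both genotypes and in the LK library. The 25 genes outside the heat-shock group took 0.417% and 0.588% of the scaled counts in wild-type LSK replicates 1 and 2, and 0.376% and 0.336% in Uhrf1-/- replicates 1 and 2. They took 0.0701% and 0.0656% in replicate 3 of the 2 genotypes and 0.0565% in the LK library. The 6 heat-shock genes took 0.483% to 0.606% in wild-type LSK cells, 0.557% to 0.638% in Uhrf1-/- LSK cells and 0.767% in LK cells, and did not show that split. In sorted populations such as these, fewer cells that express a gene and less of its RNA in each cell cannot be told apart. The labels do not say what set replicate 3 apart in handling, sort or date.

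**Figure D1:**
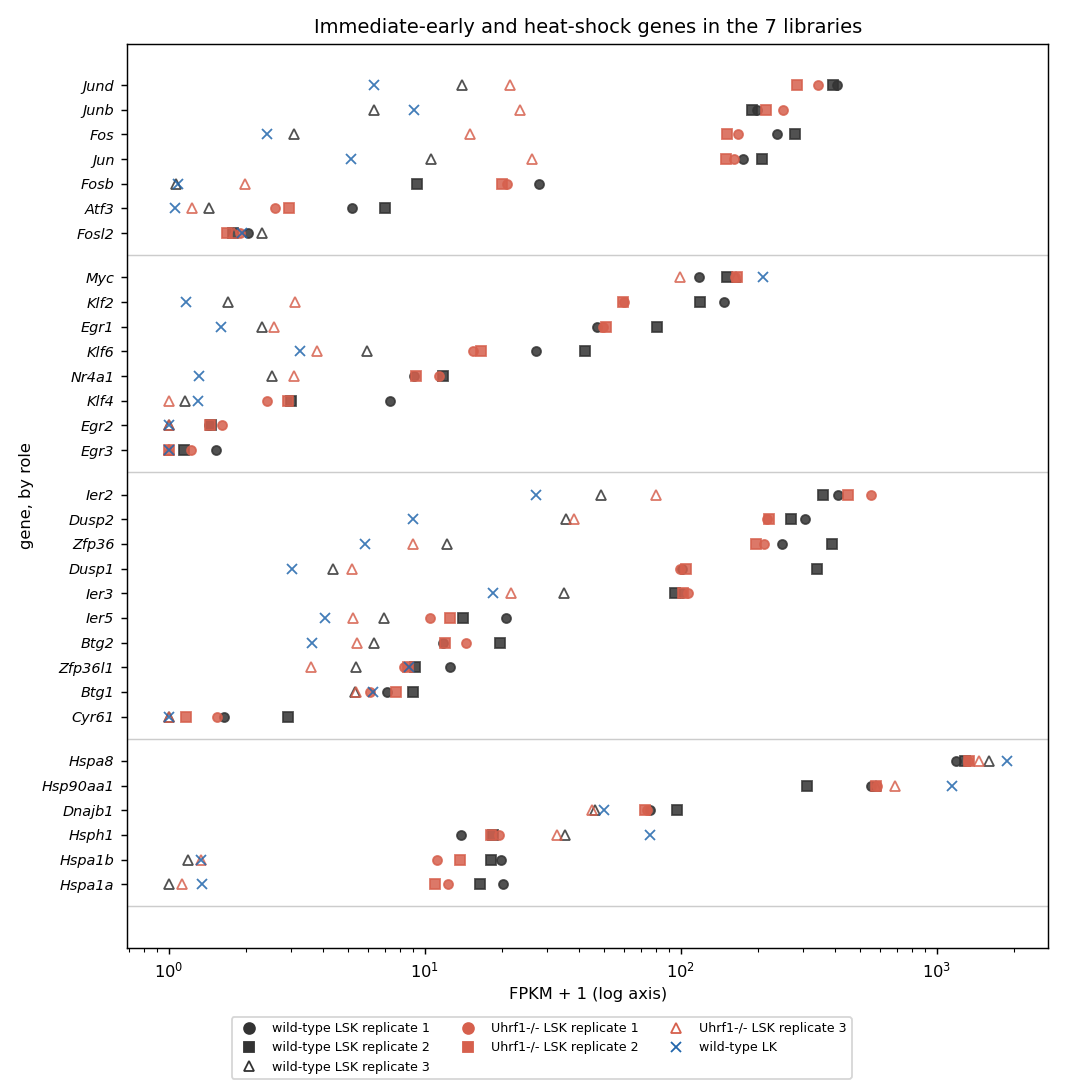
Level of each of the 31 genes (FPKM + 1, log axis) in the 7 libraries, grouped by role and ordered by mean level, 1 symbol per library. Open triangles, the 2 replicate 3 libraries, lie left of the filled circles and squares for most genes in the upper 3 groups, while Hspa8, Hsp90aa1 and Hsph1 do not shift that way.

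Whether the 3 replicate numbers differed was tested with genotype held in the model, using a limma moderated F test that treats the 3 numbers alike. Of the 27 genes tested, 20 passed at an adjusted p under 0.05, with adjusted p-values from 9.69e-09 to 0.0295. Over all 10608 genes, 6.07% passed, and 3.44% passed with replicate 3 below, as all 20 did here. In 21 of the 27 genes both replicate 3 libraries lay below all 4 libraries of replicates 1 and 2, with a mean difference of at least 1 on the log2 scale, against 4.03% of all genes. None of the 27 met the same rule in the other direction, against 2.14% of all genes. The sign of the difference was negative in 24 of 27 genes, against 53.9% of all genes. The median difference of replicate 3 from replicates 1 and 2 was -2.30 over the 27 genes and -0.05 over all genes tested. Replicate 3 was set against replicates 1 and 2 with earlier results of these data known, so these differences are a description. Only the F test, which does not single out replicate 3, gives p-values. The genes were also chosen with those results known, so the p-values are not independent support for the split. With genes of low level also in the fit, the F test called 0 of 31 genes here and 0 of all genes.

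**Figure D2:**
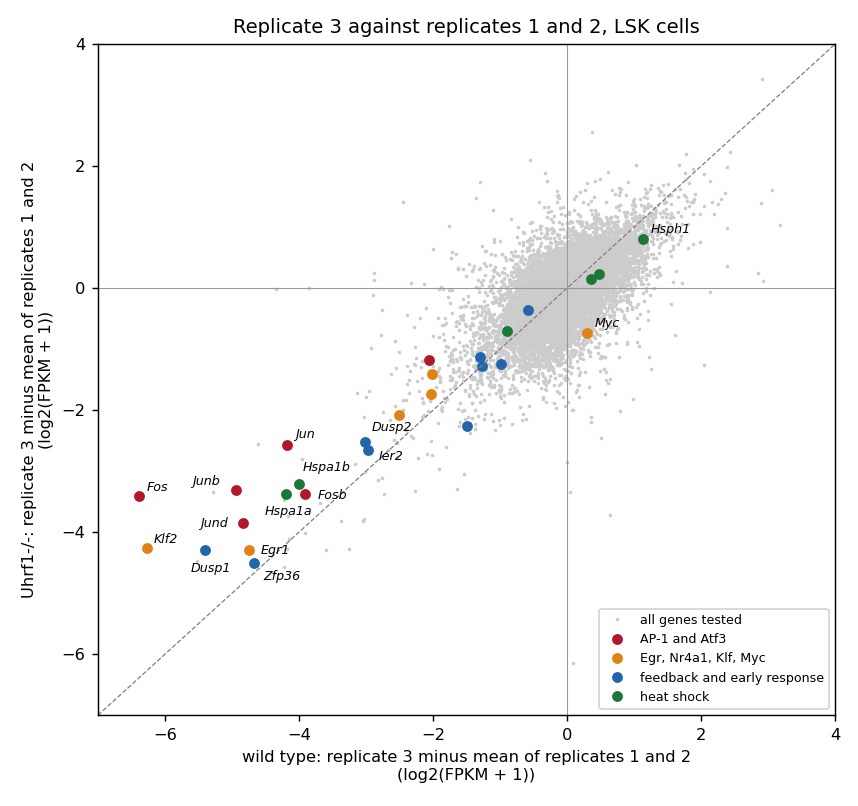
Difference of replicate 3 from the mean of replicates 1 and 2 (log2(FPKM + 1)) in wild-type LSK cells (horizontal) and Uhrf1-/- LSK cells (vertical), 1 point per gene, with all 10608 genes tested in grey and the 27 genes in colour by role. Of the 21 genes lower in replicate 3, 18 lie above the dashed line of equal differences, that is, had the larger difference in wild-type cells.

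All 6 tested AP-1 genes were lower in replicate 3, and 5 of them passed the F test. Fos (Entrez gene 14281; chromosome 12, 85473890 to 85477274), the partner that gives Jun dimers their strong binding, measured 237, 278 and 2.09 FPKM (wild-type 1 to 3), 167, 150.2 and 13.96 FPKM (mutant 1 to 3) and 1.41 FPKM (LK). Its replicate 3 difference was -6.38 in wild-type and -3.41 in Uhrf1-/- cells, with 114 and 550 estimated reads behind the 2 low values. Fos did not pass the F test (limma adjusted p = 0.160), although both replicate 3 libraries lay below the other 4. Fosb (Entrez gene 14282; chromosome 7, 19302696 to 19310118), a close relative, measured 26.9, 8.28 and 0.0675 FPKM (wild-type 1 to 3), 19.9, 18.9 and 0.976 FPKM (mutant 1 to 3) and 0.0882 FPKM (LK). Wild-type replicate 3 and LK cells had 6 estimated reads of Fosb each, so those levels are imprecise, and both lie below replicates 1 and 2 (limma adjusted p = 1.53e-06).

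Jun (Entrez gene 16476; chromosome 4, 95049036 to 95052222), the founding AP-1 subunit, measured 174, 206 and 9.57 FPKM (wild-type 1 to 3), 159.8, 149 and 25.1 FPKM (mutant 1 to 3) and 4.13 FPKM (LK) (limma adjusted p = 3.10e-05). Junb (Entrez gene 16477; chromosome 8, 84976909 to 84978748), which forms weaker activating dimers than Jun, had a replicate 3 difference of -4.94 in wild-type and -3.31 in Uhrf1-/- cells (limma adjusted p = 3.00e-06), from levels of 198, 188 and 5.31 FPKM (wild-type 1 to 3), 250.4, 215 and 22.4 FPKM (mutant 1 to 3) and 8.09 FPKM (LK). Its LK level lay above wild-type LSK replicate 3 and below Uhrf1-/- replicate 3. Jund, which in many tissues is expressed steadily and is not an immediate-early gene, followed the same split here. Jund (Entrez gene 16478; chromosome 8, 70697739 to 70700616) had the highest mean of the AP-1 genes over the 6 LSK libraries, at 405, 392 and 12.99 FPKM (wild-type 1 to 3), 341, 283 and 20.5 FPKM (mutant 1 to 3) and 5.32 FPKM (LK) (limma adjusted p = 1.23e-07). Atf3, a stress-induced partner of Jun proteins, was low throughout, at 4.17, 5.97 and 0.435 FPKM (wild-type 1 to 3), 1.61, 1.94 and 0.228 FPKM (mutant 1 to 3) and 0.0509 FPKM (LK), and passed the F test (limma adjusted p = 0.002). Fosl2, a Fos relative with slower kinetics, did not share the split: it measured 1.03, 0.773 and 1.32 FPKM (wild-type 1 to 3), 0.887, 0.689 and 0.801 FPKM (mutant 1 to 3) and 0.934 FPKM (LK), and was highest in wild-type replicate 3.

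Among the zinc finger and nuclear receptor genes, Klf2 (Entrez gene 16598; chromosome 8, 72319062 to 72321654), a factor of quiescence and trafficking in blood and endothelial cells, had the largest mean replicate 3 difference of the 27 genes (-5.27). It measured 146, 117 and 0.708 FPKM (wild-type 1 to 3), 58.7, 58.6 and 2.11 FPKM (mutant 1 to 3) and 0.165 FPKM (LK) (limma adjusted p = 0.00046), with 23, 49 and 4 estimated reads in wild-type replicate 3, Uhrf1-/- replicate 3 and LK cells. Egr1 (Entrez gene 13653; chromosome 18, 34861207 to 34864956), a growth factor response gene that in adult stem cells is linked to quiescence, measured 46.2, 79.9 and 1.31 FPKM (wild-type 1 to 3), 48.7, 49.97 and 1.57 FPKM (mutant 1 to 3) and 0.598 FPKM (LK). It had the lowest adjusted p of the 27 genes in the F test (limma, 9.69e-09), and its difference was alike in size in the genotypes, at -4.74 and -4.29. Klf6, another Krüppel-like factor, measured 26.1, 41.3 and 4.95 FPKM (wild-type 1 to 3), 14.4, 15.6 and 2.77 FPKM (mutant 1 to 3) and 2.25 FPKM (LK). Nr4a1, an orphan nuclear receptor induced by antigen and growth factor signals, measured 8.07, 10.8 and 1.52 FPKM (wild-type 1 to 3), 10.4, 8.22 and 2.08 FPKM (mutant 1 to 3) and 0.304 FPKM (LK). Klf4 measured 6.27, 2.004 and 0.157 FPKM (wild-type 1 to 3), 1.42, 1.91 and 0 FPKM (mutant 1 to 3) and 0.297 FPKM (LK). These 3 passed the F test as well, with replicate 3 differences of -2.30, -1.89 and -1.71.

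Myc, a growth regulator that is itself an immediate-early gene in quiescent cells, was high in every library and did not pass (limma adjusted p = 0.812). It measured 117, 150.2 and 163 FPKM (wild-type 1 to 3), 162, 164 and 97.8 FPKM (mutant 1 to 3) and 208 FPKM (LK), where it was highest. Egr2 was low, at 0.437 and 0.465 FPKM in wild-type and 0.610 and 0.445 FPKM in Uhrf1-/- replicates 1 and 2, from 22 to 33 estimated reads, and was listed at 0 in both replicate 3 libraries and in LK cells. Cyr61, a secreted matrix protein gene, was listed at 0 in the same 3 libraries and measured 0.633 and 1.91 FPKM in wild-type and 0.535 and 0.168 FPKM in Uhrf1-/- replicates 1 and 2. Egr3 had at most 7 estimated reads in any library.

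The early response and feedback genes followed the AP-1 genes in 8 of 9 tested cases. Dusp1 (Entrez gene 19252; chromosome 17, 26505591 to 26508472), the phosphatase that inactivates p38 and JNK kinases, measured 100.1, 339 and 3.39 FPKM (wild-type 1 to 3), 98.4, 104 and 4.21 FPKM (mutant 1 to 3) and 2.03 FPKM (LK) (limma adjusted p = 4.86e-05). Zfp36 (Entrez gene 22695; chromosome 7, 28376784 to 28379228), which binds AU-rich elements and hastens mRNA decay, measured 248, 388 and 11.2 FPKM (wild-type 1 to 3), 210.3, 196 and 7.95 FPKM (mutant 1 to 3) and 4.85 FPKM (LK) (limma adjusted p = 1.19e-08). Wild-type replicate 2 was the highest of the 7 libraries for both.

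Ier2, an early nuclear protein, was among the most abundant of the 31, at 410.2, 359 and 47.9 FPKM (wild-type 1 to 3), 553, 450.5 and 78.9 FPKM (mutant 1 to 3) and 26.1 FPKM (LK). Dusp2 (Entrez gene 13537; chromosome 2, 127336159 to 127338377), a nuclear phosphatase of activated lymphoid and myeloid cells, measured 305, 269 and 34.4 FPKM (wild-type 1 to 3), 215, 220.3 and 37.3 FPKM (mutant 1 to 3) and 8.002 FPKM (LK). Ier3, a survival and stress response gene, measured 99.7, 94.1 and 33.8 FPKM (wild-type 1 to 3), 106, 100.5 and 20.7 FPKM (mutant 1 to 3) and 17.5 FPKM (LK). Each of these 3 passed the F test, and Ier3 was 1 of 3 genes, with Btg2 and Zfp36l1, in which the difference was larger in Uhrf1-/- cells (-1.49 in wild-type and -2.26 in Uhrf1-/- cells).

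The smaller differences in this group belonged to genes of low level. Btg2, an antiproliferative p53 target, measured 10.7, 18.7 and 5.31 FPKM (wild-type 1 to 3), 13.5, 11.01 and 4.44 FPKM (mutant 1 to 3) and 2.62 FPKM (LK). Ier5, which cooperates with Hsf1, measured 19.7, 13.1 and 5.95 FPKM (wild-type 1 to 3), 9.50, 11.5 and 4.23 FPKM (mutant 1 to 3) and 3.07 FPKM (LK). Zfp36l1, a decay factor of the Zfp36 family that acts in early lymphoid cells, measured 11.6, 8.17 and 4.39 FPKM (wild-type 1 to 3), 7.26, 7.62 and 2.58 FPKM (mutant 1 to 3) and 7.65 FPKM (LK). The replicate 3 differences of these 3 genes were -1.27, -1.22 and -1.12, with limma adjusted p-values of 0.0172, 0.021 and 0.0295, and none of the 3 passed without Uhrf1-/- replicate 3 (15 to 22 of the 27 genes passed when 1 library was left out). Btg1, a relative of Btg2, had a replicate 3 difference of -0.47 and did not pass (limma adjusted p = 0.341).

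The heat-shock genes split in 3 ways. Hspa1a (Entrez gene 193740; chromosome 17, 34969359 to 34972156) and Hspa1b (Entrez gene 15511; chromosome 17, 34956429 to 34959238), the stress-inducible Hsp70 genes, were low in replicate 3 and in LK cells. Hspa1a measured 19.1, 15.4 and 0 FPKM (wild-type 1 to 3), 11.3, 9.96 and 0.123 FPKM (mutant 1 to 3) and 0.352 FPKM (LK), listed at 0 in wild-type replicate 3. Hspa1b measured 18.8, 17.1 and 0.182 FPKM (wild-type 1 to 3), 10.1, 12.7 and 0.336 FPKM (mutant 1 to 3) and 0.332 FPKM (LK). Both passed the F test (limma adjusted p = 8.79e-08 and 1.81e-07). The 2 genes are near copies: 58.8% of the 50-base stretches of the longest annotated Hspa1a transcript also occur in that of Hspa1b, so how reads were divided between them is uncertain and they are best read as a pair.

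Dnajb1 (Entrez gene 81489; chromosome 8, 83608175 to 83612653), the Hsp40 co-chaperone of the inducible Hsp70 proteins, had a replicate 3 difference of -0.80. It measured 75.02, 95.3 and 45.1 FPKM (wild-type 1 to 3), 72.8, 71.5 and 43.9 FPKM (mutant 1 to 3) and 49.2 FPKM (LK), and did not pass (limma adjusted p = 0.154), although both replicate 3 libraries lay below the other 4 LSK libraries. Hsph1 (Entrez gene 15505; chromosome 5, 149616843 to 149636498), the Hsp105 nucleotide exchange factor, went the other way. It measured 12.9, 17.4 and 34.1 FPKM (wild-type 1 to 3), 18.5, 17.1 and 31.9 FPKM (mutant 1 to 3) and 74.5 FPKM (LK) (replicate 3 difference 0.97, limma adjusted p = 0.0642). Both replicate 3 libraries lay above the other 4 LSK libraries for Hsph1, and LK cells lay above all 6, but the F test did not pass.

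The 2 most abundant chaperones among the 31 genes did not pass the F test. Hsp90aa1 (Entrez gene 15519; chromosome 12, 110691036 to 110696395), the inducible cytosolic Hsp90, measured 554, 309 and 579 FPKM (wild-type 1 to 3), 584, 579 and 683 FPKM (mutant 1 to 3) and 1150.2 FPKM (LK). Hspa8, the constitutive Hsc70 chaperone, was the most abundant of the 31 genes, at 1188, 1291 and 1591 FPKM (wild-type 1 to 3), 1321, 1336 and 1466 FPKM (mutant 1 to 3) and 1871 FPKM (LK). Both replicate 3 libraries lay above the other 4 LSK libraries for Hspa8, by 0.25 on the log2 scale, while for Hsp90aa1 they overlapped. The limma adjusted p-values in the F test were 0.675 for Hsp90aa1 and 0.929 for Hspa8. Hspa8 overlaps 3 annotated small nucleolar RNA genes, so reads of these cannot be told apart from its own here.

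Promoter sequence was taken from RefSeq (GRCm38.p6, the assembly also called mm10), which gave a promoter for 25 of the 31 genes and for 19 of the 21 lower in replicate 3. Shown first are the 250 bases upstream of the annotated start for the 4 genes with the largest replicate 3 differences, 5′ to 3′ on the gene's strand. Capitals mark a CArG box (the serum response element core) and an Egr site (GCGNGGGCG) in Zfp36, a cyclic AMP response element (CRE, TGACGTCA) in Dusp1, a TATA box (TATAAA) in Fos and an Egr site in Klf2.
Zfp36, chr7:28379229-28379478, minus strand: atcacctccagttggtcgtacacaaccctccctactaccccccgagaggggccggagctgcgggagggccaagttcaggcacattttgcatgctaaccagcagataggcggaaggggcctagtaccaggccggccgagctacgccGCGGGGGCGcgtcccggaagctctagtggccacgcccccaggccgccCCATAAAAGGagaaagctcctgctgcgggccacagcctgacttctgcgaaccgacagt
Dusp1, chr17:26508473-26508722, minus strand: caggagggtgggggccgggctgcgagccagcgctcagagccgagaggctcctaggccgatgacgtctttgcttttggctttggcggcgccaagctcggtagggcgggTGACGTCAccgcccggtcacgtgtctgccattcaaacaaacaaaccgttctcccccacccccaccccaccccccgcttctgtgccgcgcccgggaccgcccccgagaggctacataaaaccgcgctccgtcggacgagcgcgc
Fos, chr12:85473640-85473889, plus strand: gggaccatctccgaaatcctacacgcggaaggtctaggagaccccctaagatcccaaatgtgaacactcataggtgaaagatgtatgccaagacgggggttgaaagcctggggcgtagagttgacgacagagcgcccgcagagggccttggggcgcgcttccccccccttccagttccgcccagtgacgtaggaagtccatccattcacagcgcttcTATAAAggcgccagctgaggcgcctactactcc
Klf2, chr8:72318812-72319061, plus strand: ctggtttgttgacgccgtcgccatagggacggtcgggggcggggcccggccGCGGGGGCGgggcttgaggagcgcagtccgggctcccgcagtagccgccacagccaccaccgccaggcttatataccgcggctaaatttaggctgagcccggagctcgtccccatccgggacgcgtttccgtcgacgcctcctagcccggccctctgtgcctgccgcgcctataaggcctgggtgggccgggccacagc
Each motif was searched on both strands of the same 250 bases. An Egr site lay in 7 of the 19 promoters of genes lower in replicate 3 (36.8%) and in 4.70% of all 32851 promoters, and the 7 genes were Btg2, Dusp2, Fosb, Klf2, Klf4, Nr4a1 and Zfp36. A GC box (GGGCGG, the Sp1 site, which shares bases with many Egr sites) lay in 16 of the 19 (84.2%) and in 32.7% of all promoters. A CArG box lay in 1 of the 19 and in 1.47% of all, a CRE in 2 of the 19 and in 1.55%, and an AP-1 site (TGANTCA) in 1 of the 19 and in 6.75%. These counts describe letters in a window, miss any element further upstream, and do not show a bound site.

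The same window is shown for the inducible Hsp70 pair and for Dnajb1 and Hsph1, whose levels differed from that pair. For Hsph1 the annotated start used lies inside the gene span given above. Part of its window, with the marked element, therefore lies within that span, while the other windows shown adjoin theirs. Capitals mark a heat-shock element core, GAANNTTC in Hspa1a and Hspa1b and TTCNNGAA in Hsph1, and Dnajb1 held neither order in these letters.
Hspa1a, chr17:34972157-34972406, minus strand: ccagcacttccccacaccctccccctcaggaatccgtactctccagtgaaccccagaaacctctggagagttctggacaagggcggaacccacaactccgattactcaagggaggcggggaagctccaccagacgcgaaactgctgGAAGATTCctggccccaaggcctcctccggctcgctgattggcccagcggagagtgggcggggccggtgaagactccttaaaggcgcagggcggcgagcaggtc
Hspa1b, chr17:34959239-34959488, minus strand: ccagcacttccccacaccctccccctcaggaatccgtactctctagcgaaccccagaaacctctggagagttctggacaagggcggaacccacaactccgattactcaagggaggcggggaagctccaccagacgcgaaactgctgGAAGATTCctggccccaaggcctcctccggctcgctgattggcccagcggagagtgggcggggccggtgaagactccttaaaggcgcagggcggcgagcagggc
Hsph1, chr5:149636337-149636586, minus strand: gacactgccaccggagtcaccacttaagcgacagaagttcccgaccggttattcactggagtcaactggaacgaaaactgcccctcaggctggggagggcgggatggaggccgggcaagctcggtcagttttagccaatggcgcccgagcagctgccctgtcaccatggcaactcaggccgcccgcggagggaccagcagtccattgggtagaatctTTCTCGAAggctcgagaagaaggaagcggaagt
Dnajb1, chr8:83607925-83608174, plus strand: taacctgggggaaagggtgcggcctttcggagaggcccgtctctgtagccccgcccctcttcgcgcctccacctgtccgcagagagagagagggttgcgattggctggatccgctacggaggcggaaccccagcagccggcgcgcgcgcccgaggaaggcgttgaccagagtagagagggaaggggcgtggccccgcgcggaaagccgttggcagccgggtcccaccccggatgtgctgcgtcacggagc
The Hspa1a and Hspa1b windows are identical at 247 of 250 positions (98.8%). A core in either order lay in 12.8% of all promoters. Of the 19 promoters of genes lower in replicate 3, those of Hspa1a, Hspa1b and Jun held one.

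Other genes of the same responses, listed apart from the 31, showed how far the split reached. Of 40 tested other immediate-early genes, 18 passed the F test (6.07% of all genes), and 17 of these were also lower in replicate 3 by the rule above (3.44% of all genes). The 17 were Dusp5, Rgs1, Ccl3, Phlda1, Ccl4, Cxcl2, Ier5l, Ppp1r15a, Cd69, Plk2, Egr4, Rgs2, Rhob, Nfkbia, Maff, Tnfaip3 and Sik1, and the other one, Sgk1, had a difference of -1.19 with groups that overlapped. Dusp5, a MAP kinase phosphatase, measured 60.8, 41.00 and 1.85 FPKM (wild-type 1 to 3), 17.3, 20.8 and 0.503 FPKM (mutant 1 to 3) and 0.810 FPKM (LK). Rgs1, a regulator of G protein signalling, measured 24.1, 33.6 and 2.58 FPKM (wild-type 1 to 3), 15.9, 21.1 and 0.374 FPKM (mutant 1 to 3) and 0.632 FPKM (LK). The chemokine gene Ccl3 measured 67.4, 63.9 and 7.28 FPKM (wild-type 1 to 3), 12.8, 15.8 and 0.889 FPKM (mutant 1 to 3) and 2.45 FPKM (LK). In each of these 3, both replicate 3 libraries lay below the other 4 LSK libraries. Phlda1 measured 21.7, 11.9 and 1.42 FPKM (wild-type 1 to 3), 29.4, 22.4 and 2.01 FPKM (mutant 1 to 3) and 0.515 FPKM (LK). The median difference of the 40 genes was -0.86.

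Of 29 tested other chaperones, 1 passed the F test. Hspb1, the small chaperone Hsp27, measured 8.88, 1.47 and 0 FPKM (wild-type 1 to 3), 4.19, 4.86 and 0 FPKM (mutant 1 to 3) and 0.0927 FPKM (LK) (limma adjusted p = 0.012), so it went with the inducible Hsp70 pair. The next differences by size were those of Hsp90ab1 (0.75), Dnajb6 (-0.51) and Hspa4l (0.48), and the median over the 29 was 0.00. Among upstream factors, Srf, the factor that binds CArG boxes, measured 12.9, 6.75 and 10.5 FPKM (wild-type 1 to 3), 12.97, 9.84 and 14.3 FPKM (mutant 1 to 3) and 9.10 FPKM (LK), and Hsf1 measured 50.1, 58.6 and 34.3 FPKM (wild-type 1 to 3), 53.4, 53.8 and 49.6 FPKM (mutant 1 to 3) and 33.3 FPKM (LK). Srf and Hsf1 were named after their values were seen. Elk4, Map2k2 and Creb1 had differences of -0.92, -0.83 and 0.58 and did not pass.

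Of 4 tested macrophage markers, C1qa, C1qb and C1qc passed the F test and were lower in replicate 3. The other, Cd68, did not pass (replicate 3 difference 0.05, limma adjusted p = 0.929) and measured 8.98, 14.2 and 14.1 FPKM (wild-type 1 to 3), 15.4, 12.1 and 11.8 FPKM (mutant 1 to 3) and 7.05 FPKM (LK). Of 12 markers listed, 11 were in the table, and their summed level was 158.9 and 88.6 FPKM for wild-type replicates 1 and 2, 51.7 and 50.2 FPKM in Uhrf1-/- replicates 1 and 2, 15.4 and 14.3 FPKM in replicate 3 of the 2 genotypes and 8.33 FPKM in LK cells. The complement genes C1qa, C1qb and C1qc made up 146.5, 70.1, 33.4 and 35.4 FPKM of the first 4 sums, and 1.12, 2.12 and 0.771 FPKM of the last 3, of which Cd68 made up most. In wild-type and Uhrf1-/- replicate 3, 6 and 5 of the 11 markers were listed at 0, Mertk and Timd4 among them. Mertk was at most 0.0217 FPKM and Vcam1 at most 0.378 FPKM in any library. Of 5 tested hepatoblast markers, 1 passed the F test, Dlk1, while Apoa1, Apoa2, Afp and Trf had replicate 3 differences of 0.51, 0.65, -0.53 and -0.55 and did not pass. Dlk1 ranged from 33.7 to 49.7 FPKM in the 4 libraries of replicates 1 and 2, and was 5.14 and 7.56 FPKM in replicate 3 and 1.76 FPKM in LK cells, while Alb was at most 2.62 FPKM in any library. Stromal markers summed to at most 0.447 FPKM. Among 10 tested markers of the LSK cells themselves, 7 had a negative difference. Flt3 alone passed the F test (-1.05, limma adjusted p = 0.040), with groups that overlapped. Neutrophil and monocyte markers summed to 693 to 946 FPKM in replicates 1 and 2 and to 865 and 604 FPKM in replicate 3, most of it from Mpo. Of 7 of these markers tested, 5 had a negative difference and 1, Lyz2, passed (-1.22, limma adjusted p = 0.019), measured 100.3, 169.8 and 59.2 FPKM (wild-type 1 to 3), 104, 131 and 46.8 FPKM (mutant 1 to 3) and 46.5 FPKM (LK). S100a8 had a difference of -1.32 and did not pass. The part of these cells in the levels of the immediate-early genes was not tested.

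**Figure D3:**
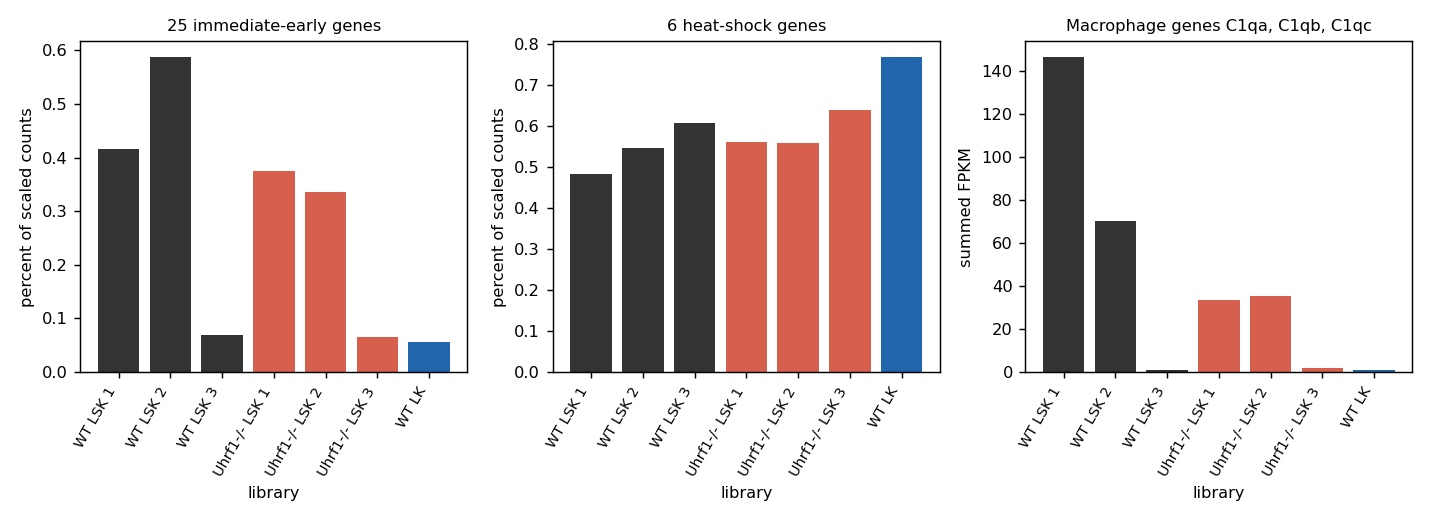
Share of the scaled counts taken by the 25 immediate-early genes (left) and the 6 heat-shock genes (middle), and summed FPKM of 3 macrophage genes (right), 1 bar per library. The left and right panels are low in replicate 3 of both genotypes and in LK cells, and the middle panel is not.

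In LK cells, which have 1 library and thus no replicate check, 15 of the 27 genes lay below all 3 wild-type LSK libraries, against 31.1% of all genes, and 4 lay above, against 32.5%. The 4 above were the chaperones Hspa8, Hsp90aa1 and Hsph1 and Myc. Hsph1 in LK cells was 3.47 times and Hsp90aa1 2.39 times the wild-type LSK mean. Of the 21 genes lower in replicate 3, 15 were lower still in LK cells than in wild-type LSK replicate 3, against 46.7% of all genes, and Fosb, Junb, Klf4, Zfp36l1, Hspa1a and Hspa1b were not. Of the 29 other chaperones, 25 lay above all 3 wild-type LSK libraries.

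Loss of Uhrf1 was compared in the same 6 LSK libraries. No member passed: limma called 0 of 27 genes higher and 0 lower, with 0 at an unadjusted p under 0.05 (5.57% of all genes), where 0.113% of all genes were called higher and 0.0566% lower. With the replicate number as a block, which removes the split described above, limma again called 0 of 27, and 5 had an unadjusted p under 0.05 (12% of all genes). Of these 5, Klf6, Atf3, Klf4 and Zfp36 were lower in Uhrf1-/- cells and Junb higher. With that block 1.23% of all genes were called higher and 0.830% lower. The blocked fit called Klf6 lower and Fosb higher without wild-type or mutant replicate 1, where it called 6.24% and 6.16% of all genes. It called Atf3 lower without wild-type or mutant replicate 3, where it called 1.87% and 1.82% of all genes. Without replicate 2 of either genotype it called 0.

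Klf6 came nearest, with a mean of 24.1 ± 18.3 FPKM in wild-type cells and 10.9 ± 7.09 FPKM in the mutant (SD, n = 3), and a log2 fold change of -0.94 (SE 0.90, limma adjusted p = 0.942; blocked SE 0.25, adjusted p = 0.053). It was lower in Uhrf1-/- cells in 3 of 3 replicate numbers, at 0.553, 0.377 and 0.560 times the wild-type level. Atf3 was also lower in 3 of 3, at 0.385, 0.325 and 0.524 times, with a log2 fold change of -0.82 (blocked SE 0.25, limma blocked adjusted p = 0.114). Of the other genes tested, Klf4, Ier5, Zfp36, Zfp36l1 and Dnajb1 were lower in 3 of 3 as well. Junb and Ier2 were higher in 3 of 3, with log2 fold changes of 0.81 and 0.49 (blocked limma adjusted p = 0.296 and 0.584), and so was Hsp90aa1. The share of all genes that kept 1 direction in 3 of 3 was not counted. Hsp90aa1 was the 1 member whose 3 Uhrf1-/- libraries all lay above the 3 wild-type libraries, against 4.61% of all genes, and 0 of 27 lay all below, against 6.16%. The separation of Hsp90aa1 was slight, with 579.02 FPKM in mutant replicate 2 and 578.63 FPKM in wild-type replicate 3. Its log2 fold change of 0.41 (limma adjusted p = 0.942) was 0.12 without wild-type replicate 2.

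The direction between genotypes turned with the replicate number for several genes. Among the 21 genes lower in replicate 3, 15 and 17 were lower in Uhrf1-/- than in wild-type cells in replicates 1 and 2, and 8 were lower in replicate 3, while over all genes tested the shares were 51.3%, 53.2% and 54.6%. Klf2 in Uhrf1-/- cells was 0.401 and 0.499 times the wild-type level in replicates 1 and 2 and 2.98 times it in replicate 3. Fos was 0.703, 0.540 and 6.67 times the wild-type level, and Jun 0.917, 0.722 and 2.63 times. In replicate 3 the 5 AP-1 genes Fos, Fosb, Jun, Junb and Jund were all higher in the Uhrf1-/- library, while Atf3, Klf4, Klf6, Btg2, Ier3, Ier5, Zfp36 and Zfp36l1 were lower there. With 1 library per genotype in each replicate number there is no spread behind these ratios, and whether the genotype difference differs between replicate numbers was not tested. Over all 6 libraries the log2 fold changes were -0.48 for Klf2 and 0.29 for Fos (limma adjusted p = 0.984 and 0.995), and both turned sign when 1 library was left out.

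**Figure D4:**
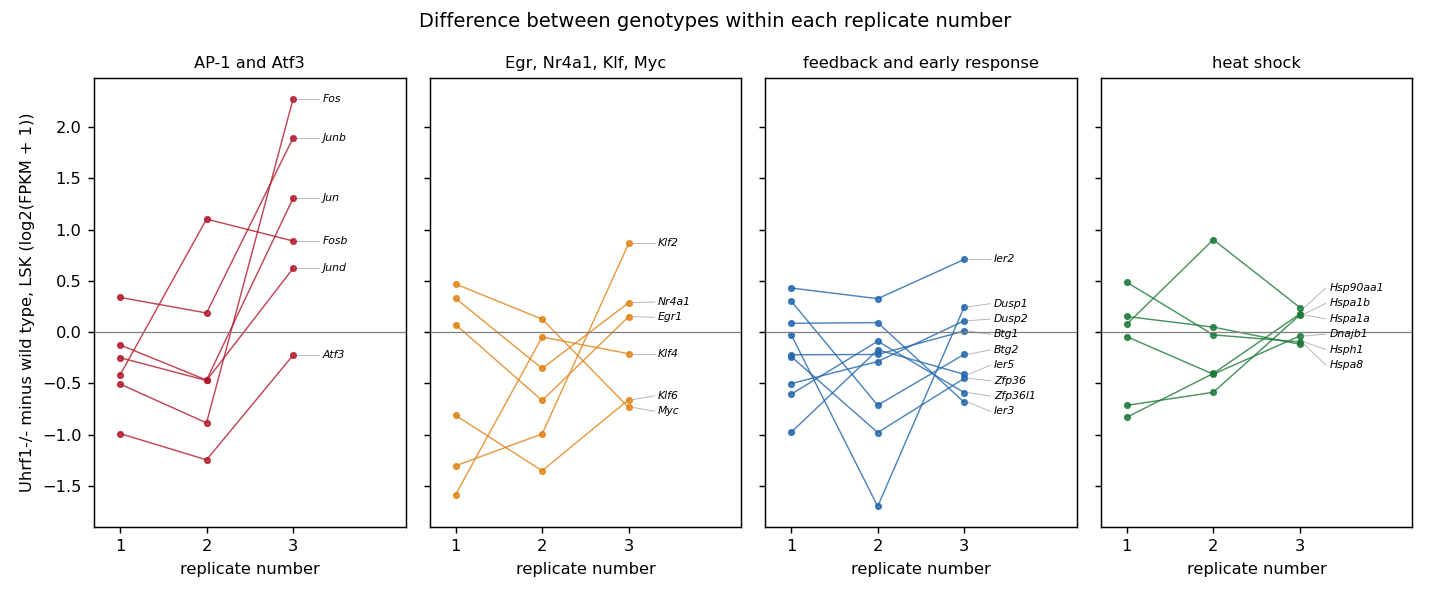
Uhrf1-/- minus wild-type LSK cells (log2(FPKM + 1)) within each replicate number, 1 point per gene and number, for the 27 genes tested; lines join the points of 1 gene and do not stand for an order. Fos, Junb and Jun lie highest in replicate 3, and the heat-shock genes lie near 0 there.

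Of the other immediate-early genes, 3 of 40 were called lower in Uhrf1-/- cells with the replicate block (0.830% of all genes) and 0 without it (0.0566%). These were Ccl3, Dusp5 and the MAP kinase phosphatase Dusp6, with log2 fold changes of -2.13, -1.21 and -1.14 (blocked limma adjusted p = 4.86e-05, 0.012 and 0.016; without the block 0.942, 0.949 and 0.447). Each was lower in Uhrf1-/- cells in 3 of 3 replicate numbers. Dusp6 measured 12.8, 30.6 and 12.9 FPKM (wild-type 1 to 3), 6.78, 9.39 and 6.03 FPKM (mutant 1 to 3) and 2.82 FPKM (LK). The macrophage C1q sum was also lower in Uhrf1-/- than in wild-type cells in replicates 1 and 2, but not in replicate 3 (2.12 against 1.12 FPKM). Its part in these differences was not tested. No other chaperone was called in either fit. Among 10 tested LSK markers, 2 were called lower in Uhrf1-/- cells with the block and 0 without it. These were Flt3 and Hoxa9 (blocked limma adjusted p = 0.00044 and 0.016).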

How the data were processed

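The 31 genes and all lists were chosen with earlier results of these data known, and so was the split of replicate 3 from replicates 1 and 2. The authors deposited 1 table with 2 values per library: FPKM, and a scaled count signal that the file headers call a count although its values are not whole, so no count model was run. TopHat2 2.0.9, Cufflinks 2.1.1 and mm10 appear, per the submitters' processing notes, with no role; the annotation, strand and counting settings are unknown here. Estimated reads are the signal divided by its most frequent value above 0 in that library (98.2% to 98.6% of values below 100 reads lay within 0.02 of a whole number).

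Groups and replicate numbers came from the titles. limma 3.58.1 (R 4.3.3) was fitted on log2(FPKM + 1) over the 6 LSK libraries for genes averaging 1 FPKM or more, with trended, robust empirical Bayes moderation and Benjamini-Hochberg adjustment over 10608 genes at 0.05, two-sided for genotype. The replicate numbers were tested with the moderated F statistic of an additive model with genotype. Nothing says that libraries came from separate animals, so p-values cover only the spread seen among the libraries, which may be technical. Between same-numbered libraries, deviations from group means had correlations of 0.349, 0.332 and 0.645 (all over 0.1), and on that ground, not from labels, the numbers were taken to pair them. Differently numbered libraries reached 0.213 (wild-type 2 with mutant 1) and 0.159 (wild-type 1 with mutant 2), so numbers 1 and 2 are told apart less clearly than number 3. Values in every library are given for genes tested with a range of at least 1 on the log2 scale. The fits were tested on simulated data. Alternatives were the replicate block, a pseudocount of 0.1, no filter on low values, median-of-ratios scaling, depth-scaled counts, moderation without trend or robust fitting, and each library left out. Gene positions and promoters were matched by gene ID to RefSeq on GRCm38.p6, for all 31 genes and for 25.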

Additional observations from a re-analysis of the deposited data

Results flagged for a closer look

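Myc moved in opposite directions in the 2 genotypes. Wild-type replicate 3 lay above both other wild-type LSK libraries (a difference of 0.30 on the log2(FPKM + 1) scale from the mean of replicates 1 and 2), and Uhrf1-/- replicate 3 lay below both other Uhrf1-/- libraries (-0.73). There is 1 replicate 3 library per genotype, and the difference between the genotypes was not tested.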

How the results depend on the processing

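The 21 genes counted as lower in replicate 3 were all counted again under every alternative run except without Uhrf1-/- replicate 3, where 20 were (Zfp36l1 was lost), and on depth-scaled counts, where Egr2 and Cyr61, then above the filter, joined them. Leaving out 1 library gave 20 to 21. The count above replicates 1 and 2 was 0, 1 with a pseudocount of 0.1, and 0 to 1 when 1 library was left out, the 1 being reached without wild-type replicate 2 and without Uhrf1-/- replicate 3. The F test for replicate number called 20 genes, 15 to 22 when 1 library was left out, and 0 with no filter on low values, where it called 0 genes of the whole table; the cause was not tested. Zfp36l1 and Ier5 were lost without wild-type replicate 2 or 3 and without Uhrf1-/- replicate 2 or 3. The genotype counts were 0 higher and 0 lower without the block under each alternative, and 0 and 0 with the replicate block. The block together with another alternative, chosen after seeing the data, called 1 (Klf6, adjusted p = 0.049) on depth-scaled counts and 0 to 2 when 1 library was left out, against 0.178% to 6.24% of all genes, and 0 under the other 4 settings. Leaving out 1 library gave genotype fold changes of -1.83 to 1.43 for Fos and -2.57 to 0.94 for Klf2. That of Fos turned to -1.83 without wild-type replicate 3, -0.31 without Uhrf1-/- replicate 1 and -0.24 without Uhrf1-/- replicate 2. That of Klf2 turned to 0.65, 0.49 and 0.94 without wild-type replicate 1, wild-type replicate 2 and Uhrf1-/- replicate 3. Over the 3 scalings the median of all genes lay between -0.09 and 0.02 for genotype and between -0.05 and -0.01 for replicate 3, and for LK cells it went from 0.05 to -0.19 on depth-scaled counts. Low levels in replicate 3 rest on few reads (6 for Fosb, 23 for Klf2 in wild-type cells), so their folds are imprecise.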

Other observations

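Outside the lists, the 8 genes whose levels over the 6 LSK libraries followed the mean of the 21 genes lower in replicate 3 most closely were Pnrc1, Pef1, Lrch4, Tnf, Marcksl1, Gsto1, Hnrnpul1 and Fzd9, with Pearson r from 0.993 to 0.998. They were picked for this likeness from all genes tested that are outside the lists, and the libraries share their 2-against-1 split, so r is a description. Marcksl1, a membrane and actin-binding protein gene, measured 597, 568 and 183 FPKM (wild-type 1 to 3), 559, 561 and 215 FPKM (mutant 1 to 3) and 60.4 FPKM (LK). Pnrc1, a nuclear receptor coactivator gene, measured 105, 104 and 29.6 FPKM (wild-type 1 to 3), 84.9, 85.9 and 35.2 FPKM (mutant 1 to 3) and 10.4 FPKM (LK). Tnf, an inflammatory cytokine gene whose mRNA Zfp36 is known to bind, measured 21.1, 17.97 and 4.52 FPKM (wild-type 1 to 3), 16.6, 15.01 and 5.08 FPKM (mutant 1 to 3) and 0.902 FPKM (LK).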
